A study of Mus musculus with 16 samples.

Results

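A set of 8 members of the let-7 family of microRNAs (miRNAs) were followed in a mouse macrophage-like cell line that had been given Th2 cytokines, IL-33 or both. They were mmu-let-7a-5p, mmu-let-7b-5p, mmu-let-7d-5p, mmu-let-7f-5p, mmu-let-7g-5p, mmu-let-7i-5p, mmu-let-7k and mmu-miR-98-5p (written without the mouse prefix from here on), taken by name from the probe annotation of the arrays, which put 8 of the 1247 mouse miRNAs measured in the set. let-7c-5p and let-7e-5p carry the same seed but were not in the set, and serve here as comparators. All 8 members were among the 231 miRNAs tested, which were those detected on every array of any treatment group.

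RAW264.7 cells, an established macrophage-like line, were grown for 48 h in complete medium alone or with the Th2 cytokines IL-4 and IL-13 at 10 ng/ml. After a wash, cells were left unstimulated or given murine recombinant IL-33 at 20 ng/ml for 4 h. This gave 4 groups of 4 arrays: medium alone (Media), Th2 cytokines alone (Th2), medium then IL-33 (Media_IL33) and Th2 cytokines then IL-33 (Th2_IL33). Each array in a group came from a different one of 4 experiments. The numbers 1 to 4 follow the sample titles, so "Media 3" is taken as the medium-only array of experiment 3. Total RNA was labelled with Cy3 and hybridised to Agilent miRNA arrays. No primary cells were measured, and all groups share the line, the serum-containing medium and the wash.

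let-7 miRNAs are cut from hairpin precursors whose maturation the RNA-binding protein Lin28 can block, and the mature guide strands repress messenger RNAs through the seed near the 5′ end. Known targets of the family include Ras genes and Hmga2, and the family is best known for holding back proliferation and marking differentiated cells. In immune cells, let-7 guides are known to repress Il13, let-7i to repress Tlr4, and miR-98 to repress Il10. IL-4 and IL-13 drive the alternative activation of macrophages, and IL-33 is an alarm cytokine of the IL-1 family.

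The mature sequences show how alike these miRNAs are, and they are printed because the comparisons below turn on differences of 1 to 4 bases outside the seed. Sequences are from RefSeq (GRCm38.p6), 5′ to 3′, with the seed (bases 2 to 8) in capitals:
let-7a-5p: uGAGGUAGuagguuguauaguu
let-7b-5p: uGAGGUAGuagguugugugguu
let-7d-5p: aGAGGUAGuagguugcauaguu
let-7f-5p: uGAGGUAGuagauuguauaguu
let-7g-5p: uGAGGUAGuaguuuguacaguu
let-7i-5p: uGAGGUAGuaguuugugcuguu
let-7k: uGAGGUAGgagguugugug
miR-98-5p: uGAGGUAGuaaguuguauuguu
let-7c-5p, comparator: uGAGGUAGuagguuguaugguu
let-7e-5p, comparator: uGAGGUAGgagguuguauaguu
All 8 members matched an entry and all 8 share the seed GAGGUAG, which 11 of the 1679 mouse mature miRNAs in the table carry. The remaining carriers are let-7c-5p, let-7e-5p and miR-1961, and the last was not detected on any array. let-7j differs inside the seed (GAGGUAU). Counting from the 5′ end and giving the base of let-7c-5p first, let-7a-5p differs from let-7c-5p by G19A alone and let-7b-5p by A17G alone. let-7f-5p differs by G12A and G19A, miR-98-5p by G11A and G19U, and let-7k by U9G and A17G over its 19 bases. let-7d-5p and let-7g-5p differ at 3 bases, and let-7i-5p at 4 (G12U, A17G, U18C and G19U).

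The members come from several chromosomes. By the RefSeq gene table, Mirlet7a-1, Mirlet7f-1 and Mirlet7d lie within 10 kb of each other on the minus strand of chromosome 13. Mirlet7b lies within the long noncoding gene Lncppara on chromosome 15, beside Mirlet7c-2. Mirlet7f-2 and Mir98 lie together within the bounds of the protein-coding gene Huwe1 on the X chromosome, and Mirlet7g lies within Wdr82 on chromosome 9. Mirlet7i on chromosome 10 and Mir7k on chromosome 5 have no other miRNA gene within 10 kb. Whether these positions are exonic or intronic was not analysed here. The array design (mm9) places the longer let-7a-5p probe at chr13:48633562-48633581 and at chr9:41344817-41344836, so its signal joins the output of both sites. The longer let-7f-5p probe likewise maps to chr13:48633206-48633226 and chrX:148346897-148346917.

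Each member was read by 2 probes of 20 spots each. The let-7a-5p, let-7b-5p and let-7c-5p probes of 19 bases show how the array tells close relatives apart; DNA letters are 5′ to 3′, and capitals mark the base opposite a difference from let-7c-5p:
let-7a-5p probe: aacTatacaacctactacc
let-7b-5p probe: aaccaCacaacctactacc
let-7c-5p probe: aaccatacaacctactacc
let-7c-5p has a single mismatch to the let-7a-5p probe and to the let-7b-5p probe, and binding of a close relative to a probe was not measured. The probes of let-7g-5p and miR-98-5p sit at least 2 bases from any other let-7 guide of the array. The values below are relative signals: the summed background-corrected intensity of a miRNA's probes divided by the 75th percentile of that array, taken over the 178 miRNAs that every array detected. That percentile lay between 427 and 654 intensity units. Probes differ in length and base content, so a signal is followed from group to group for 1 miRNA and is not set against that of another.

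Between 206 and 256 miRNAs were detected per array. The arrays did not match their groups equally well. The median correlation with the other arrays of the group was 0.874 for Media 3, 0.920 for Media 1 and Media 2, 0.945 for Th2_IL33 2 and from 0.968 to 0.991 for the other 12. On Media 3 the members lay at a median of -0.49 on the log2 scale from their group means, and all 8 lay below, while the median over all tested miRNAs was -0.35. The myeloid miRNAs miR-223-3p, miR-142a-3p and miR-142a-5p were detected on all 16 arrays. Of these 3, miR-223-3p rose by 1.13 in Th2 against Media and 1.08 under IL-33 (limma, adjusted p = 0.00495 and 0.00687). Its Th2 and Media arrays overlapped. The first difference was 1.51 within slide 1 of the 2 array slides (3 arrays with 3) and -0.030 within slide 2 (1 with 1). miR-142a-3p and miR-142a-5p did not pass in either comparison. The summed relative signal of all 3 ranged from 1.21 to 1.74 in Media and 1.37 to 2.15 in Th2. It ranged from 1.21 to 1.47 in Media_IL33 and 1.36 to 2.19 in Th2_IL33. The part of this sum in the Th2 results was not tested. Of 13 miRNAs that mark liver, blood, muscle, nerve, epithelial, endocrine or lymphoid cells, 12 were detected on none; miR-206-3p was detected on 11 arrays but well above background on 0.

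let-7a-5p is the guide encoded beside let-7f and let-7d on chromosome 13. Its relative signals were 5.24, 4.10, 3.03 and 4.94 on Media arrays 1 to 4 and 5.67, 5.93, 5.50 and 5.34 on the Th2 arrays. They were 3.83, 4.27, 4.88 and 4.57 on the Media_IL33 arrays and 5.54, 5.94, 4.82 and 6.35 on the Th2_IL33 arrays. Every Th2 array lay above every Media array, and Th2_IL33 overlapped Media_IL33 only through array 3. In order, the group means were 4.33 ± 0.991 in Media, 4.39 ± 0.450 in Media_IL33, 5.61 ± 0.253 in Th2 and 5.66 ± 0.651 in Th2_IL33 (SD, n = 4). The neighbours that differ by IL-33 alone, Media with Media_IL33 and Th2 with Th2_IL33, lay within their spread.

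let-7b-5p, the guide encoded beside let-7c-2, had signals of 3.03, 2.57, 1.61 and 2.54 in Media and 2.86, 3.10, 2.79 and 2.72 in Th2. In Media_IL33 they were 2.13, 2.39, 2.59 and 2.37, and in Th2_IL33 2.92, 3.03, 2.53 and 3.15. Media and Th2 overlapped because Media 1 was as high as the Th2 arrays, and the low end of Media was array 3. Under IL-33, Th2_IL33 3 alone fell within the Media_IL33 range.

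let-7f-5p and let-7d-5p, the other guides of the chromosome 13 cluster, were flatter. let-7f-5p ran at 4.54, 3.91, 2.74 and 4.48 in Media, 4.48, 4.24, 3.98 and 4.23 in Th2, 3.39, 3.71, 4.28 and 4.26 in Media_IL33, and 4.04, 4.59, 3.91 and 4.65 in Th2_IL33. let-7d-5p ran at 3.13, 2.63, 1.66 and 2.85 in Media, 2.63, 2.92, 2.56 and 2.79 in Th2, 2.16, 2.31, 2.67 and 2.75 in Media_IL33, and 2.74, 2.88, 2.36 and 3.15 in Th2_IL33. For both guides all 4 groups overlapped, and Media 3 was the lowest array.

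let-7g-5p, from the Wdr82 gene, ranged from 1.02 to 1.81 in Media, 1.47 to 1.68 in Th2, 1.29 to 1.55 in Media_IL33 and 1.53 to 1.77 in Th2_IL33. let-7i-5p, the guide known to repress Tlr4, had signals of 4.53, 3.16, 2.35 and 3.55 in Media, 3.27, 3.33, 2.99 and 3.49 in Th2, 3.09, 3.40, 3.58 and 3.40 in Media_IL33 and 3.62, 3.99, 3.57 and 3.87 in Th2_IL33. Its 4 Th2_IL33 arrays lay above its 4 Th2 arrays, and Media, with both the highest and the lowest array, overlapped every group.

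miR-98-5p and let-7k had relative signals below 1 on all 16 arrays. miR-98-5p, encoded with let-7f-2 in Huwe1, ranged from 0.204 to 0.303 in Media, 0.239 to 0.272 in Th2, 0.232 to 0.307 in Media_IL33 and 0.235 to 0.263 in Th2_IL33. Its coefficient of variation over the 16 arrays was 10.6%, and its groups overlapped throughout. let-7k ranged from 0.0540 to 0.117 in Media, 0.0697 to 0.0811 in Th2, 0.0533 to 0.0945 in Media_IL33 and 0.0543 to 0.0846 in Th2_IL33. It was well above background on 14 of 16 arrays, near the floor of 0.0353 set for the log scale, and its coefficient of variation was 21.5%. Its probes of 15 and 16 bases sit 1 base from let-7b-5p, and binding of let-7b-5p to them was not measured. The other 7 members were well above background on all 16.

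**Figure D1:**
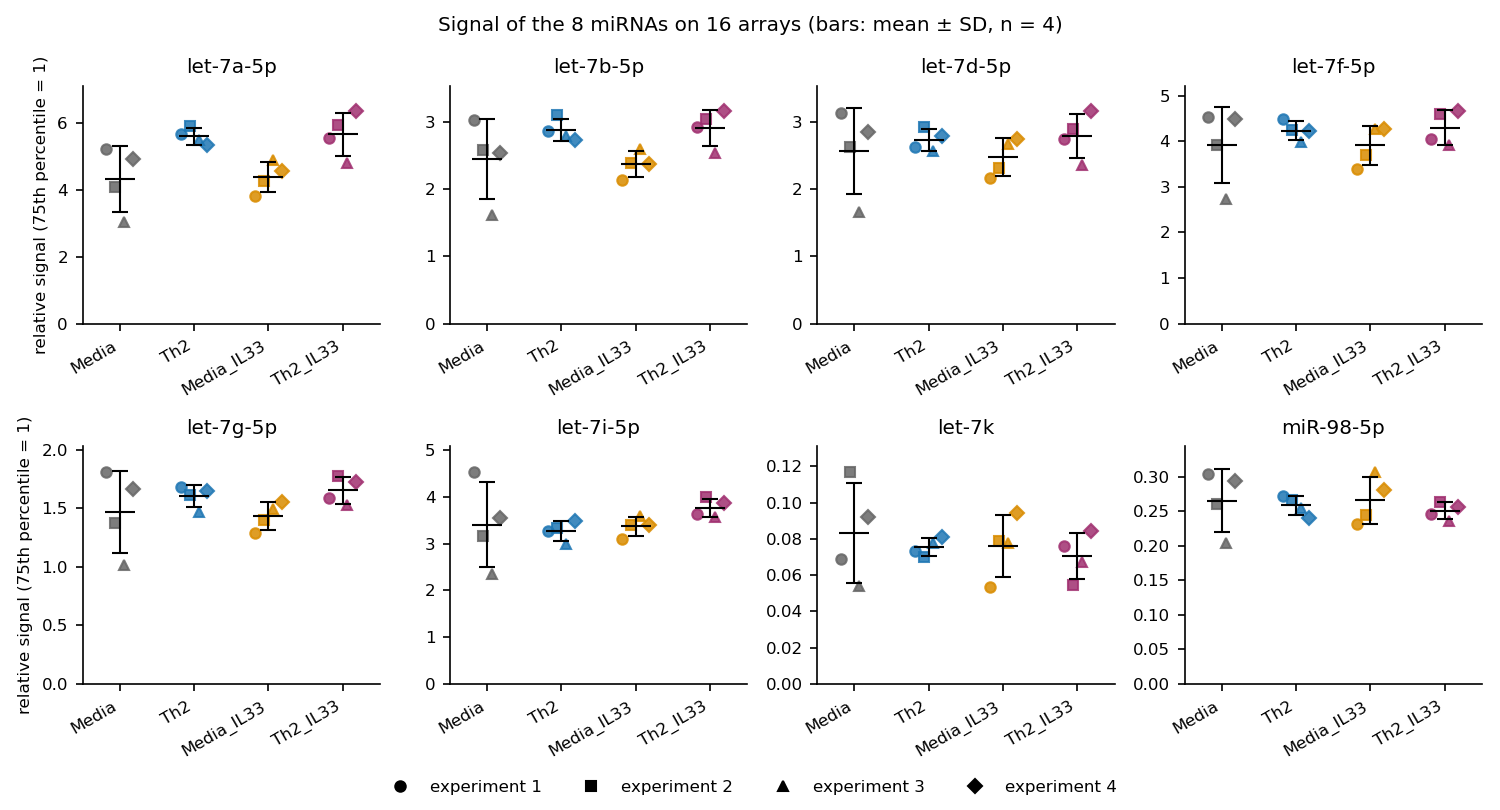
Relative signal (array 75th percentile = 1, linear axis from 0) of the 8 members in the 4 groups; symbols are arrays by experiment and bars the mean ± SD (n = 4). let-7a-5p lies at 5.34 to 5.93 in Th2 and 3.03 to 5.24 in Media, and Media 3 is the lowest array for 7 of the 8 members.

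In bulk RNA, fewer cells carrying a miRNA and less of it per cell cannot be told apart. The spread itself was shared between members. Set at their own means, the members moved together from array to array: on Media 3, Media_IL33 1 and Th2_IL33 3 all 8 lay below their group means, and on Media 4, Media_IL33 3, Media_IL33 4 and Th2_IL33 4 none did. The median over all tested miRNAs shifted the same way on these arrays. It was -0.35, -0.15, -0.16, 0.14, 0.077, 0.088 and 0.12 in that order. Whether overall array scaling takes part in the members' movement was not tested. let-7k departed most from the rest, with a deviation of 0.56 on Media 2 where the median member was at 0.0070.

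**Figure D2:**
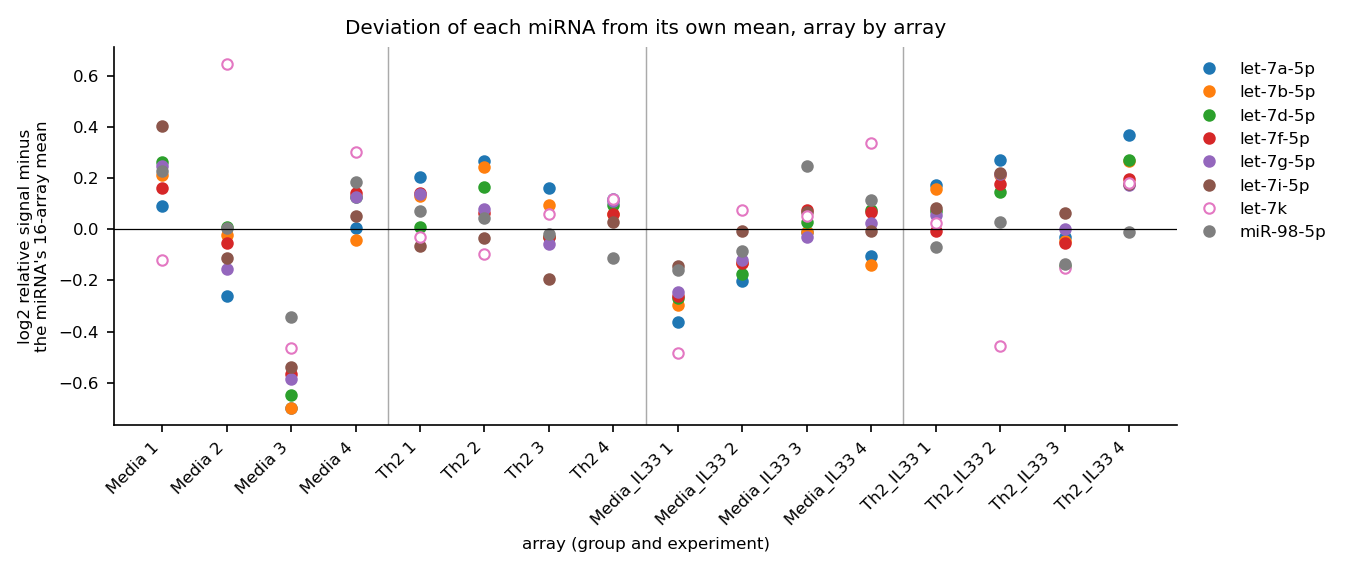
Log2 relative signal of each member minus its own mean over the 16 arrays, by array; each colour is 1 member and open circles are let-7k. The members cluster on most arrays, lie lowest on Media 3, and let-7k stands away from the others on Media 2 and Th2_IL33 2.

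The first question was whether growth in Th2 cytokines moved these guides. let-7a-5p was 1.32-fold higher in Th2 than in Media (95% interval 1.05 to 1.67), a log2 difference of 0.40 ± 0.16 (SE) that was positive in 4 of 4 experiments, as for 15.6% of tested miRNAs. It did not pass the threshold of 0.05 over all 231 miRNAs (limma, unadjusted p = 0.0205, adjusted p = 0.127). let-7b-5p followed at 0.27 ± 0.16 (limma, adjusted p = 0.343), higher in 3 of 4 experiments. The remaining differences were 0.16 for let-7g-5p, 0.14 for let-7f-5p, 0.12 for let-7d-5p, -0.018 for let-7i-5p, -0.023 for miR-98-5p and -0.079 for let-7k.

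None of the 8 members passed the threshold in either direction, where 22 of the 231 miRNAs (9.52%) did. At an unadjusted limma p under 0.05 there was 1 member, let-7a-5p, against 24.2% of all tested miRNAs. Its groups did not overlap, as was true, in the same direction, of 9.09% of tested miRNAs. The median difference was 0.13 over the members and 0.063 over all tested miRNAs. The members' median turned negative without Media 3 (-0.049, against 0.018 over all tested miRNAs). It was also negative after quantile normalization (-0.046, against -0.029 over all tested miRNAs) and in the authors' deposited table (-0.075, against -0.067). Without Media 3, let-7g-5p was at -0.0046, let-7f-5p at -0.024 and let-7d-5p at -0.073. The intervals left room for changes: over the members without let-7k they ran from -0.35 for let-7i-5p to 0.74 for let-7a-5p.

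The value of let-7a-5p differed between slides and between scalings; an effect of the slide was not tested. Within slide 1 (3 Th2 arrays with 3 Media arrays) its difference was 0.53, within slide 2 (1 with 1) it was 0.026. Both groups had 3 arrays on slide 1 and 1 on slide 2, so a slide block cannot move the difference; limma's adjusted p with it was 0.148. Without Media 3 it was 0.24 (limma, adjusted p = 0.241), and let-7b-5p was 0.084 (limma, adjusted p = 0.672). Scaling also moved the median of all tested miRNAs, from 0.063 to -0.067 in the authors' deposited table. Relative to that median let-7a-5p lay at 0.34 as scaled here, 0.12 in the authors' deposited table and 0.048 after quantile normalization. The split by slide was not particular to let-7a-5p. All other members except let-7k were also lower within slide 2 than within slide 1, as for let-7b-5p (0.41 within slide 1 and -0.15 within slide 2). let-7k went the other way (-0.18 and 0.24).

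**Figure D3:**
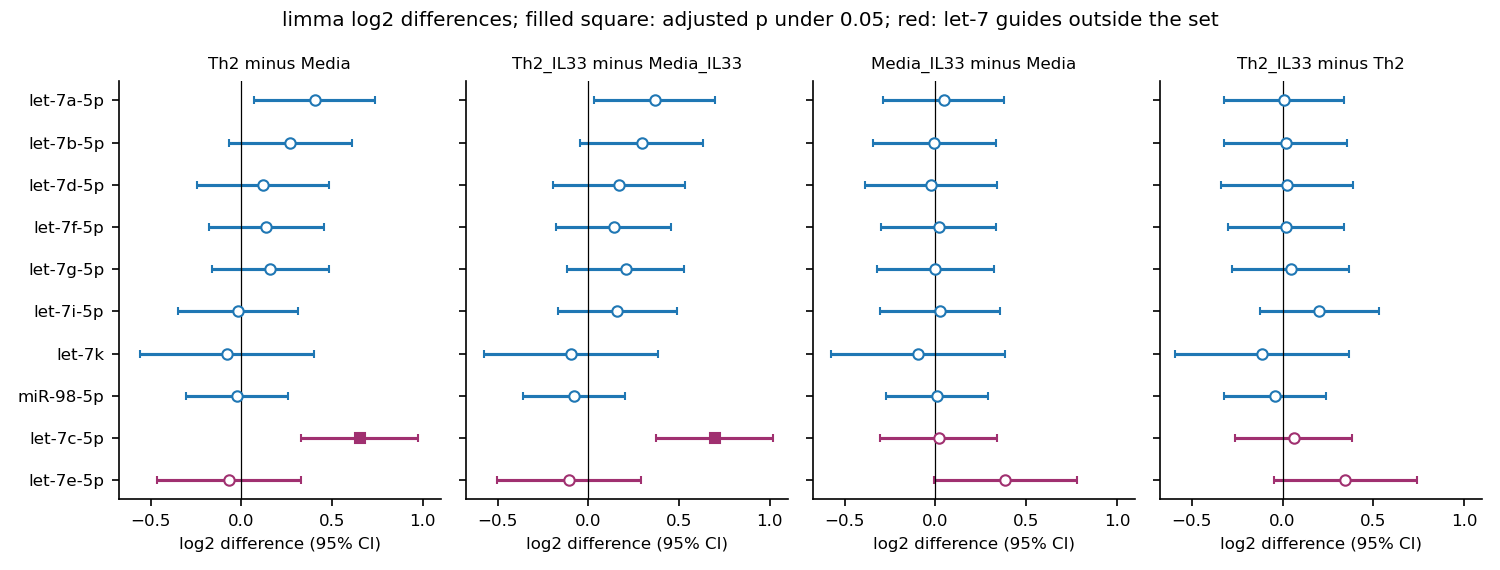
limma log2 differences with 95% confidence intervals (n = 4 arrays per group) in the 4 pairwise comparisons; blue, members; red, let-7c-5p and let-7e-5p; a filled square marks adjusted p under 0.05. let-7a-5p reaches 0.40 and 0.37 in the Th2 comparisons with open symbols, let-7c-5p 0.65 and 0.70 with filled ones.

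The same growth condition could be read again in cells that then received IL-33. In Th2_IL33, let-7a-5p exceeded its Media_IL33 level 1.29-fold (95% interval 1.02 to 1.62), a log2 difference of 0.37 ± 0.16 (limma, unadjusted p = 0.0331, adjusted p = 0.201), positive in 3 of 4 experiments. let-7b-5p was at 0.29, let-7g-5p at 0.21, let-7d-5p at 0.17, let-7i-5p at 0.16, let-7f-5p at 0.14, miR-98-5p at -0.077 and let-7k at -0.097. Again 0 of 8 members and 22 of 231 miRNAs (9.52%) passed the threshold. let-7a-5p was the 1 member with an unadjusted limma p under 0.05, against 20.3% of all tested miRNAs. let-7g-5p was the 1 member higher in all 4 experiments, as were 23.4% of tested miRNAs.

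let-7a-5p alone crossed the threshold in any of the 26 settings run. Without Media 3, an array outside this comparison that enters through the shared estimate of spread, its difference stayed at 0.37 and limma's adjusted p became 0.0400. Over the other settings its adjusted p reached 0.791 in the authors' deposited table, where the difference was 0.068. Relative to the median of all tested miRNAs the difference was 0.29 as scaled here and 0.11 in the authors' deposited table. Slide 1 held no Th2_IL33 array; within slide 2 (4 arrays with 2) it was 0.48.

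The second question was whether 4 h of IL-33 moved the guides. In medium-grown cells, the 8 differences ran from -0.096 for let-7k to 0.046 for let-7a-5p, with limma's adjusted p at 1 for each. None of the members and 4 of the 231 miRNAs (1.73%) passed; at an unadjusted limma p under 0.05 the shares were 0 of 8 and 6.06%. Of the members 0 were higher in all 4 experiments, as 6.06% of tested miRNAs were. Without let-7k the 95% intervals ran from -0.39 for let-7d-5p to 0.38 for let-7a-5p. Log2 changes inside a member's own interval were not excluded. The slides gave opposite signs for all 8 members: let-7a-5p was at 0.26 within slide 1 (2 arrays with 3) and -0.37 within slide 2 (2 with 1). With slide as a block the 8 members lay between -0.046 and 0.045. Without Media 3 all 8 were negative, from -0.28 to -0.11, with the median of all tested miRNAs at -0.085 and 0 past the threshold.

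In Th2-grown cells, IL-33 gave differences from -0.11 for let-7k to 0.20 for let-7i-5p. let-7i-5p was higher in 4 of 4 experiments and its groups did not overlap, where 11.7% of tested miRNAs were higher in all 4 and 3.9% did not overlap in that direction. Its difference of 0.20 ± 0.15 did not pass (limma, unadjusted p = 0.209, adjusted p = 1). With slide as a block it was 0.069; slide 2 held all Th2_IL33 arrays and 1 Th2 array. As before, 0 of 8 members passed, against 4 of 231 miRNAs (1.73%), and 0 of 8 against 2.6% had an unadjusted limma p under 0.05. let-7a-5p, let-7b-5p, let-7f-5p and let-7d-5p stood at 0.0081, 0.016, 0.019 and 0.026.

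Whether the IL-33 response differed between the growth conditions was tested as an interaction. The members ran from -0.054 for miR-98-5p to 0.18 for let-7i-5p, with limma's adjusted p at 0.995 for each. None of the 8 members and 0 of all 231 miRNAs (0%) passed, with 0 members and 5 miRNAs (2.16%) at an unadjusted limma p under 0.05. The 95% intervals of the members reached from -0.70 to 0.66. Slide 2 held all Th2_IL33 arrays, whereas Media and Th2 had 3 arrays each on slide 1, so slide and interaction were partly confounded. With slide as a block the members ran from -0.041 to 0.088.

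let-7c-5p, outside the set, was higher in Th2-grown cells. Its relative signals were 5.96, 4.64, 3.23 and 4.79 in Media, 7.22, 7.73, 7.04 and 6.65 in Th2, 4.27, 4.59, 5.06 and 4.52 in Media_IL33, and 7.49, 7.99, 6.63 and 7.79 in Th2_IL33. The arrays of Th2-grown cells lay above all arrays of medium-grown cells. It rose by 0.65 in Th2 (limma, adjusted p = 0.00839) and 0.70 under IL-33 (limma, adjusted p = 0.00621). With each array scaled over all miRNAs the differences were 0.60 and 0.66, with SE 0.25 in place of 0.15, and neither passed (limma, adjusted p = 0.200 and 0.191). In the authors' deposited table they were 0.20 and 0.34, and neither passed (limma, adjusted p = 0.408 and 0.101). After quantile normalization they were 0.26 and 0.39, and the first did not pass (limma, adjusted p = 0.156 and 0.0408). As scaled here, Th2 against Media gave 0.82 within slide 1 (3 arrays with 3) and 0.16 within slide 2 (1 with 1). Under IL-33, slide 2 (4 with 2) gave 0.75 and slide 1 held no Th2_IL33 array.

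That 1 guide passes and its relatives do not is no test of a difference between them, so the ratio within each array was tested. The comparator was chosen with its change in these data known. In Th2 against Media the log2 ratio of let-7c-5p to each of the 8 members rose, and all 8 passed (limma, adjusted p from 3.92e-06 to 0.0107), where the ratio of let-7c-5p to all other tested miRNAs passed for 69.6%. The rise was least against let-7a-5p (0.25 ± 0.067) and let-7b-5p (0.38 ± 0.053). It was 0.49 against let-7g-5p, 0.51 against let-7f-5p, 0.53 against let-7d-5p, 0.67 against let-7i-5p, 0.68 against miR-98-5p and 0.73 against let-7k.

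Under IL-33 the ratios to all 8 members passed as well, against 71.3% of other miRNAs. They rose by 0.33 against let-7a-5p and 0.40 against let-7b-5p, and by 0.49 to 0.79 against the other 6. A ratio shows unequal change and not that a member stayed still. The scaling of an array cancels in it, yet quantile normalization, which is not a single factor per array, left 1 and 2 members past the threshold, and the authors' deposited values left 0 and 0. In those tables let-7c-5p differed by 0.26 and 0.20 in Th2 against Media, with the members between -0.19 and 0.096 and between -0.21 and 0.082.

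**Figure D4:**
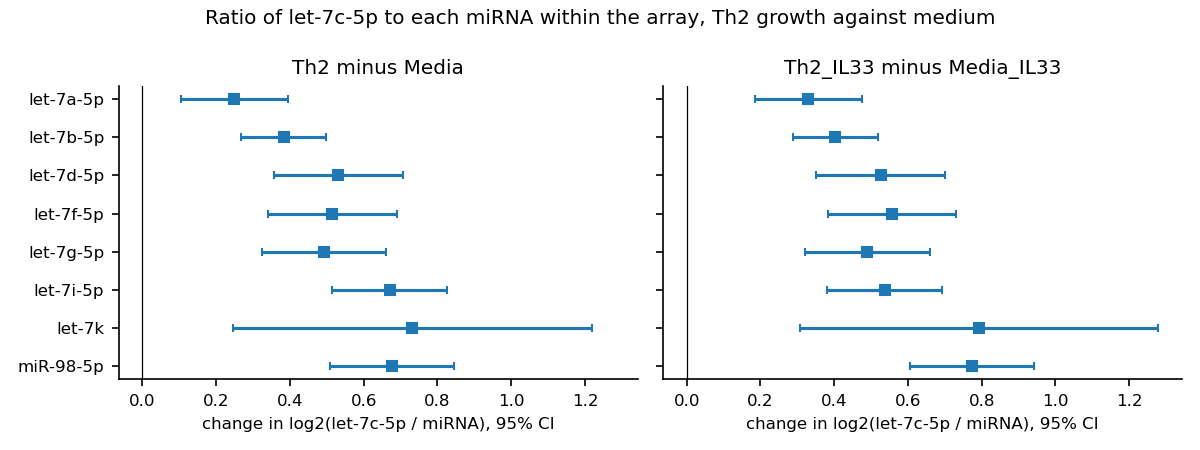
Change in the log2 ratio of let-7c-5p to each member within an array, with 95% confidence intervals (limma, n = 4 arrays per group), for Th2 growth without IL-33 and with it. All intervals lie above 0; let-7a-5p has the least change (0.25 and 0.33) and let-7k the widest interval.

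let-7e-5p, encoded beside miR-125a on chromosome 17, gave a different reading. It was at -0.067 in Th2 against Media and -0.11 under IL-33, both short of the threshold (limma, adjusted p = 0.911 and 0.689). Its ratio to let-7a-5p fell by 0.47 in both comparisons and that to let-7b-5p fell by 0.34 and 0.40. These passed in both (limma, adjusted p from 0.00288 to 0.0221). In all, the ratios to 2 of 8 members passed in Th2 against Media (background 20%, or 46 of 230) and to 4 of 8 under IL-33 (background 24.8%), with let-7d-5p and let-7g-5p added. With the replicate block, the slide block or both, the count under IL-33 was 2 in place of 4, and after quantile normalization and with the authors' deposited values 0 members passed in either comparison.

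Set by sequence distance from let-7c-5p, the 2 members that differ by 1 base had the highest differences in both Th2 comparisons as scaled here. These were 0.27 and 0.40 in Th2 against Media and 0.29 and 0.37 under IL-33. The 3 members at 2 bases ran from -0.079 to 0.14 and from -0.097 to 0.14, the 2 at 3 bases from 0.12 to 0.16 and from 0.17 to 0.21, and let-7i-5p at 4 bases was at -0.018 and 0.16. Beyond 1 base there was no order, and the intervals of all members overlapped. Under IL-33 against no IL-33 the members at 1 base lay between -0.0062 and 0.046. Whether let-7c-5p bound to the probes of its nearest relatives takes part in these values was not tested. These distances count the whole mature sequence, and over the bases its probes cover let-7d-5p differs from let-7c-5p at 2. Which members were highest also depended on scaling. After quantile normalization let-7g-5p (0.096) lay above let-7b-5p (0.092) and let-7a-5p (0.019) in Th2 against Media. In the authors' deposited table under IL-33 let-7g-5p lay at 0.070, above let-7a-5p (0.068) and let-7b-5p (0.038). In the other Th2 comparison of each, let-7a-5p and let-7b-5p stayed highest.

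**Figure D5:**
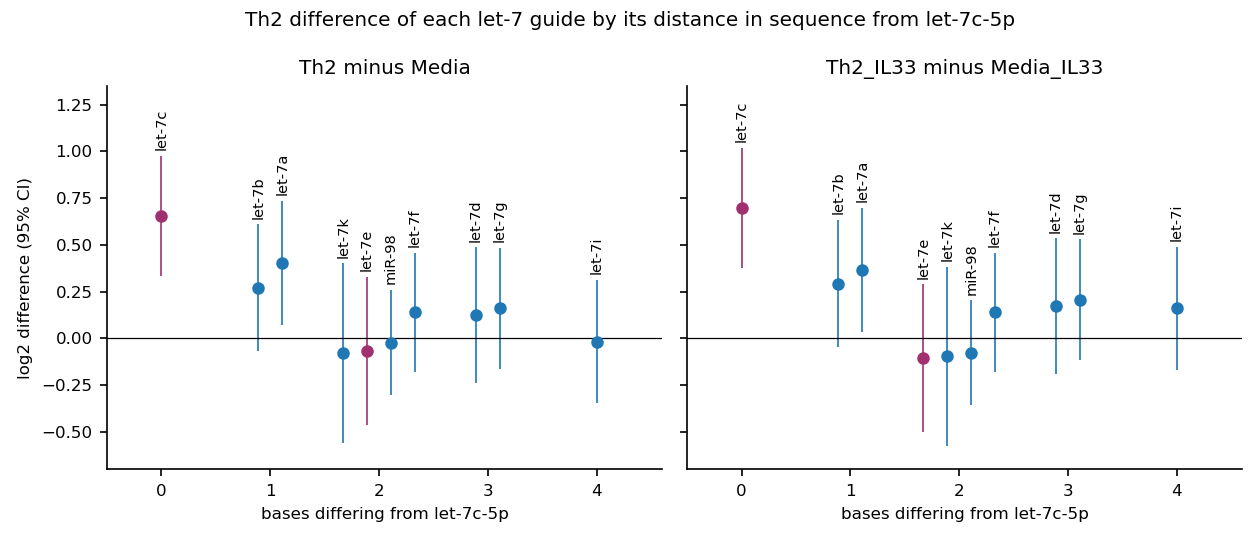
Log2 difference (95% confidence interval, limma, n = 4 arrays per group) of each let-7 guide by the number of bases at which it differs from let-7c-5p, for both Th2 comparisons; points at 1 distance are spread sideways, blue for members and red for let-7c-5p and let-7e-5p. As scaled here, let-7a-5p and let-7b-5p, at 1 base, are the highest members, and beyond 1 base the points show no order.

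The 2 probes of a member gave the same sign for 5 of 8 members in Th2 against Media and for 8 of 8 under IL-33. They cover the same bases but for 1 at the end and share the arrays and scaling, so they are not independent readings. For let-7a-5p the 2 probes gave 0.44 and 0.31 in the first comparison and 0.40 and 0.28 in the second. The widest gap was that of let-7k, whose probes gave -0.30 and 0.029 in Th2 against Media. In the IL-33 comparisons, where differences were near 0, the probes had 1 sign for 2 and 3 of the 8 members.

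Likeness between miRNAs was measured as the root mean square difference of their log2 signals over the 16 arrays, each set at its own mean. let-7f-5p and let-7g-5p were the closest pair of members at 0.053, although their genes lie on different chromosomes. The median over the 28 pairs of members was 0.14, and over all 26565 pairs of tested miRNAs, dim ones included, it was 0.43. A member against all tested miRNAs had a median of 0.25 to 0.34, and between 0 and 4 of each member's 10 nearest miRNAs were members. let-7a-5p lay nearest to miR-27a-3p (0.059), miR-652-3p (0.083) and let-7b-5p (0.084). let-7b-5p lay nearest to miR-652-3p and miR-10a-5p (both 0.069), let-7d-5p to miR-15b-5p (0.062), let-7i-5p to miR-15a-5p (0.082) and miR-98-5p to miR-130b-3p (0.089). let-7k had no close partner, with miR-188-5p nearest at 0.21. These values share the arrays and their scaling.

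Of the miRNAs encoded beside let-7 genes, 3 of 5 rose in both Th2 comparisons, against 9.52% of all tested miRNAs passing in each, and 0 of 5 passed with IL-33 in either growth condition, against 1.73%. miR-99a-5p rose by 1.08 and 1.14, miR-100-5p by 1.01 and 0.89, and miR-125b-5p by 0.75 and 0.72 (limma, adjusted p from 8.79e-05 to 0.00679). miR-125a-5p and miR-99b-5p, the neighbours of let-7e, were at -0.066 and -0.33 in Th2 against Media and at -0.069 and -0.29 under IL-33, and did not pass. With IL-33, miR-125a-5p stood at 0.51 in medium-grown cells (limma, unadjusted p = 0.0138, adjusted p = 0.353) and 0.50 in Th2-grown cells (unadjusted p = 0.0142, adjusted p = 0.658), higher in 4 of 4 experiments in both. miR-99b-5p stood at 0.51 and 0.55 (limma, unadjusted p = 0.0409 and 0.0290, adjusted p = 0.780 and 1), also higher in 4 of 4. let-7e-5p, their neighbour, stood at 0.39 and 0.35 (limma, adjusted p = 0.846 and 1), while the highest member in either IL-33 comparison was let-7i-5p at 0.20. Of all tested miRNAs, 6.06% were higher in all 4 experiments with IL-33 in medium-grown cells and 11.7% in Th2-grown cells. miR-99b-5p was well above background on 2 of 4 Media arrays and 0 of 4 Th2 arrays. Its lowest Th2 signal was 0.0386, near the floor of 0.0353. Mir99a lies within 10 kb of Mirlet7c-1 on chromosome 16, and let-7c-5p stood at 0.65 and 0.70 in the Th2 comparisons and passed as scaled here. miR-100 and miR-125b genes are known to lie beside a let-7a gene, and let-7a-5p itself stood at 0.40 and 0.37 in the Th2 comparisons and did not pass.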

How the data were processed

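The submitters' scanner files hold single-colour Cy3 intensity values from Agilent Feature Extraction 10.7.3.1, per the file headers, and 100 ng of RNA was labelled, per the labels' protocols. The authors' deposited value table holds linear intensity values made with Partek 6.6 and RMA, per the submitters' processing notes; its columns share 1 distribution.

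Processed signals were used. Control spots and outlier spots (2040 to 3929 of 49880 per array; 0 saturated) were dropped, spots of a probe averaged, probes of a miRNA summed, and arrays divided by their 75th percentile over 178 miRNAs detected on all 16 arrays. Values under 0.0353 were raised to it before log2. Of 1247 miRNAs, 231 were tested with limma 3.58.1 in R 4.3.3, with 1 mean per group, 12 residual degrees of freedom and Benjamini-Hochberg adjustment at 0.05; confidence intervals are 95%. Ratios were fitted the same way against 230 miRNAs. The scripts were tested on simulated data. For arrays, their number limits the precision.

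Same-numbered arrays were taken as 1 experiment, by the number that ends their sample titles. Deviations from group means correlated at a median of 0.11 over 24 same-numbered pairs (-0.69 to 0.73; 14 over 0.1) and -0.049 over 72 others. The alternatives were the scaling, background correction, dim filter, probe choice, replicate and slide blocks, the authors' table and leaving out arrays. All members were named by rule, and members and lists were chosen with earlier results of these data known. miR-142 was matched to its array name, miR-142a.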

Additional observations from a re-analysis of the deposited data

How the results depend on the processing

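Over 1040 combinations of a member, a comparison and 1 of 26 settings, 1039 kept their side of the threshold; 165 changed sign while short of it, none with a reported size over 0.21. The exception was let-7a-5p in Th2_IL33 against Media_IL33 without Media 3, so the count of members past the threshold there ranged from 0 to 1 over single arrays left out. In the other 4 comparisons that count was 0 in every setting. The count of all miRNAs past it ranged from 15 to 30 in Th2 against Media (22 as reported), from 12 to 37 under IL-33 (22), from 1 to 6 for IL-33 in medium (4) and from 2 to 4 in Th2-grown cells (4); the cause was not tested. With the replicate block, let-7a-5p was at 0.40 (limma, adjusted p = 0.119) and 0.37 (adjusted p = 0.173), and no member changed its call. The ratio of let-7e-5p under IL-33 passed for 2 members (4 as reported) with the replicate block, with slide as a block, with both blocks and with normexp background correction. Quantile normalization left 1 and 2 members for let-7c-5p and 0 and 0 for let-7e-5p, and the authors' deposited values left 0 in all 4 ratio counts; the cause was not tested. With single arrays left out, the let-7e-5p counts ranged from 1 to 4 (4 without Media 3, 1 without Th2 1 or Th2 2) and from 2 to 5 under IL-33 (5 without Media 3 or Th2_IL33 1), and the let-7c-5p counts stayed at 8. Without Media 1, Media 3 and Th2_IL33 2 together, chosen after seeing the data, let-7a-5p was at 0.32 (limma, adjusted p = 0.173) and 0.34 (adjusted p = 0.117). Signal over background limits let-7k most.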

Other observations

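The strands opposite the guides were near background. Of 11 partner strands on the array, 9 were detected on no array and 0 were tested. let-7b-3p and let-7d-3p were detected on 1 array each, Media 3, with relative signals of 0.179 and 0.192; their highest signals elsewhere were 0.0622 and 0.0727, both on Th2 4. Media 3 was also the array on which their guides, let-7b-5p (1.61) and let-7d-5p (1.66), were lowest. Every other member except let-7k was lowest there too. let-7f-1-3p, let-7g-3p and let-7i-3p, detected on no array, also had their highest signals on Media 3 (0.0796, 0.0634 and 0.0215). The remaining partner strands had theirs on other arrays. Media 3 matched its group least (median correlation 0.874), with the median over all tested miRNAs at -0.35 from the group means. Whether this array as a whole takes part in these values was not tested. let-7j, whose seed differs, was detected on 2 of 16 arrays and well above background on 0.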
